A study of Rattus norvegicus with 11 samples.

Results

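The 10 genes described here encode the channels, pumps and store proteins that move calcium in muscle cells, namely Cacna1c, Cacnb2, Cacna2d1, Atp2a2, Atp2b4, Pln, Ryr2, Itpr1, Stim1 and Orai1. They were taken by symbol from a table of 18507 genes, and all 10 were present. RNA-seq was performed on bladder tissues of female Sprague-Dawley rats about 0.5 years old. In rats with partial bladder outlet obstruction (PBOO), a suture was tied around the bladder neck and urethra, whereas the study's methods give sham-operated rats as controls, which the sample records call normal. Tissues were taken at week 4 (3 PBOO and 3 normal samples) and week 5 (2 PBOO and 3 normal samples). The columns of all week 4 samples carry the name Input, those of the week 5 normal samples adult and those of the week 5 PBOO samples DO. The study's methods do not say what Input, adult or DO stand for. At week 5 the names adult and DO follow normal and PBOO samples exactly, so anything they mark cannot be told apart from obstruction. No transgene or drug was involved. Each sample was bladder tissue in bulk, in which cell types are mixed, and the study's methods do not say which part was taken.

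Bladder smooth muscle contracts when calcium in the cytoplasm rises. Calcium enters from outside through L-type channels and is released from the sarcoplasmic reticulum through ryanodine and IP3 receptors. It is then pumped back into the store by SERCA or out of the cell by PMCA, and emptied stores are refilled through STIM and ORAI proteins.

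Values were FPKM, sequenced fragments scaled both for exon length and for the mapped total of the sample, so they are per length and can be compared between genes. The FPKM values summed to between 424961 and 564343 per sample, and sequencing depth is unknown because no read counts were used here. The weeks appeared to have been quantified separately, since 4871 genes were listed at 0 in every week 4 sample and 403 in every week 5 sample. Levels are therefore tested only within a week, and any level set across weeks is also a comparison between these quantifications. The tissue label was checked with 10 smooth muscle markers, whose summed level was 26333 to 28578 FPKM in week 4 normal samples and 25536 to 29839 in week 5 normal samples. In PBOO samples the sum was 52243 to 83240 at week 4 but 1005 to 1885 at week 5, so the week 5 PBOO samples held little smooth muscle RNA. In such bulk samples, fewer muscle cells and less RNA per muscle cell cannot be told apart.

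In week 4 normal bladders the genes spanned a wide range of levels. Atp2b4, the plasma membrane calcium pump PMCA4, had the highest level at 165 ± 6.42 FPKM (SD, n = 3). It was followed by Atp2a2, the SERCA2 pump of the store, at 139.9 ± 8.88 FPKM (SD, n = 3) and Pln, which encodes the SERCA inhibitor phospholamban, at 77.0 ± 27.0 FPKM (SD, n = 3). The IP3 receptor gene Itpr1 came next at 33.5 ± 1.70 FPKM (SD, n = 3). These 4 genes did not overlap with their neighbours in this order, whereas the next 3 did. Orai1 was at 26.8 ± 3.89, Cacna2d1 at 21.8 ± 5.88 and Stim1 at 18.5 ± 0.934 FPKM (SD, n = 3 each), and the samples of Cacna2d1 overlapped with those of both others. Cacnb2 at 10.1 ± 0.507 and Cacna1c at 8.23 ± 0.618 FPKM (SD, n = 3 each) stood below them without overlap. Ryr2, the cardiac-type ryanodine receptor, was lowest by a wide margin at 0.323 ± 0.0312 FPKM (SD, n = 3). In week 5 normal samples Atp2a2 led at 146 ± 10.7 FPKM, above Atp2b4 at 88.1 ± 17.6 FPKM, and Ryr2 was again lowest at 0.147 ± 0.0515 FPKM (SD, n = 3 each).

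**Figure D1:**
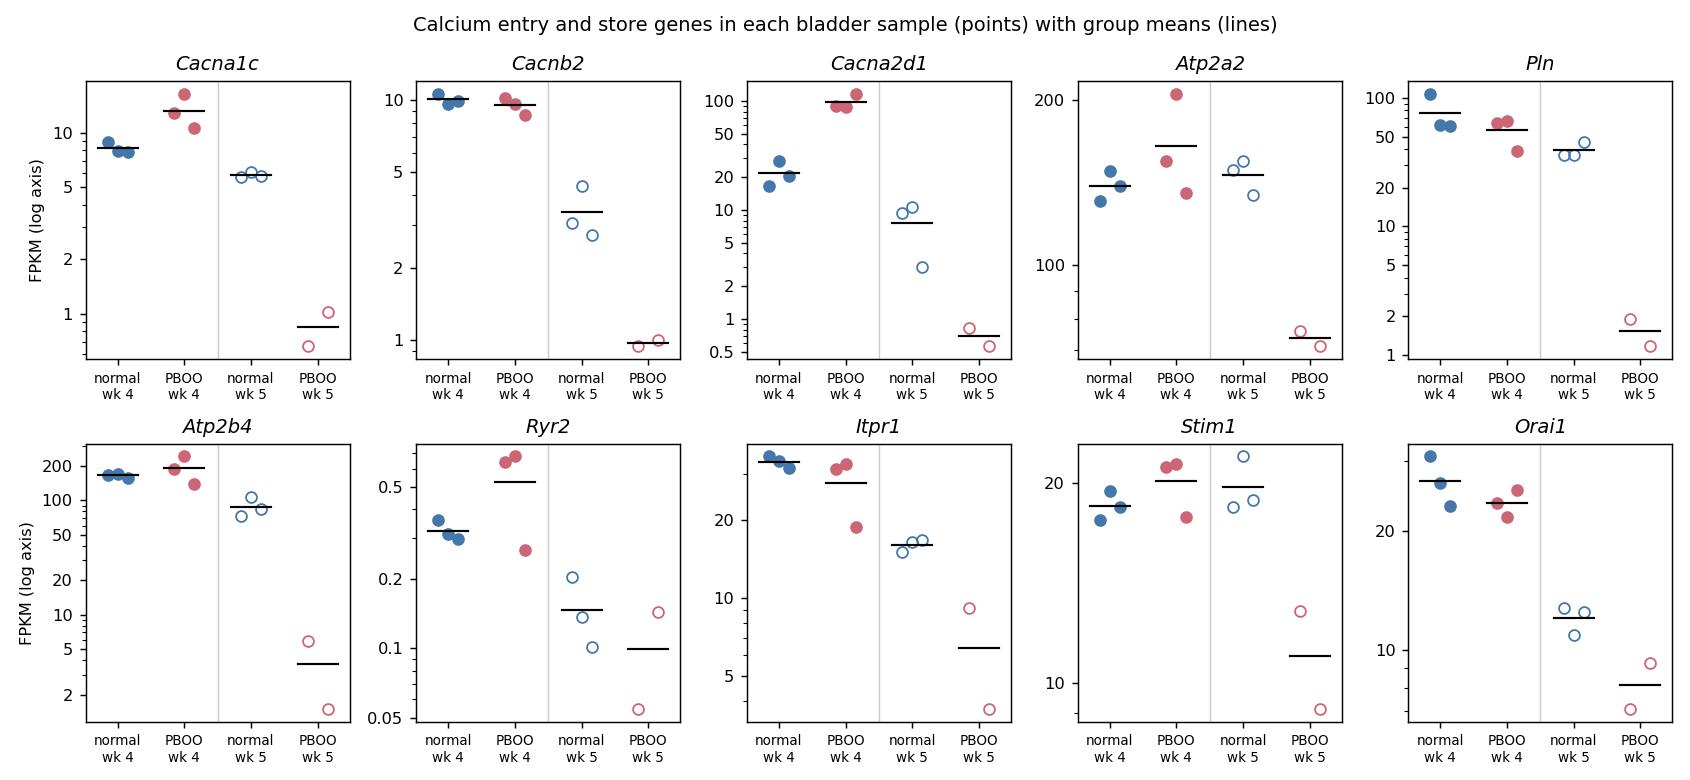
FPKM of each gene in every sample on a log axis, by group (normal in blue, PBOO in red, filled for week 4 and open for week 5), with group means as lines. At week 4 Cacna1c and Cacna2d1 are higher in all 3 PBOO samples, and at week 5 both PBOO samples lie below all normal samples for every gene except Ryr2.

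The promoters of the genes were read from RefSeq (build GRCr8) as 300-base windows around each annotated start. All 10 genes were matched, with 13 windows in all, because Cacna2d1 had 3 and Cacnb2 had 2. This build is not the one named in the sample records, so the windows are background to the expression values. Their base composition varied widely. The window of Atp2a2 had a GC content of 79.0%, and that of Orai1 72.3%, against a median of 51.7% over 33469 windows, whereas Pln had 45.0% and Atp2b4 44.7%. The windows of Pln, Atp2b4, Cacna1c and Itpr1 held no GC box. Those of Cacna2d1, which also fell at week 5, had a GC content of 73.0% to 78.3%. Whether the windows relate to expression was not tested. The GC box, searched as GGGCGG on both strands, occurred in 33.06% of all windows. It was found in the windows of Cacnb2, Cacna2d1, Atp2a2, Ryr2, Stim1 and Orai1. The muscle motifs CArG box (in 1.64% of windows) and MEF2 site (in 3.29%) were found in none of the 13. The 250 bases upstream of the start are printed for Pln, which had one of the largest week 5 differences, and for its target Atp2a2 and for Orai1, which had smaller ones, with GC boxes in capitals, 5′ to 3′ on the gene's strand. They lie at chr12:39733269-39733518 (+ strand) for Atp2a2, chr20:33172244-33172493 (+ strand) for Pln and chr12:39209031-39209280 (- strand) for Orai1.
Atp2a2: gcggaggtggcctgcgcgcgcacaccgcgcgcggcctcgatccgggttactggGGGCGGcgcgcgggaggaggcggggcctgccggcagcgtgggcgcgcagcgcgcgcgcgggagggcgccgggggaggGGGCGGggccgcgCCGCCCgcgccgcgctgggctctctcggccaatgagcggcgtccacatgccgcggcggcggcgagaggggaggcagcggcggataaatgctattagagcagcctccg
Pln: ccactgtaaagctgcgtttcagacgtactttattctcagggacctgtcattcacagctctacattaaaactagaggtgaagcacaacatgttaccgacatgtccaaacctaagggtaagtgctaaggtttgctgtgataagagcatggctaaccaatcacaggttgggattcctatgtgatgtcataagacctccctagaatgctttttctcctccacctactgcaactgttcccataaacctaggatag
Orai1: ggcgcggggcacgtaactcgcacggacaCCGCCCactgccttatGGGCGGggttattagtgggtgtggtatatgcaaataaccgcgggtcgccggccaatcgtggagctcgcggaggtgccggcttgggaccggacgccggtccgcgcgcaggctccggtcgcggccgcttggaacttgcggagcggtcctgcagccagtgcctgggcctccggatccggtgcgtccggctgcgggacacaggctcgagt

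At week 4 the subunits of the L-type channel differed in their response, with Cacna2d1 and Cacna1c higher in PBOO tissues and Cacnb2 not called. PBOO was compared with normal tissues on log2(FPKM + 0.1) with limma over every gene whose mean reached 0.5 FPKM. A gene is said to have risen or fallen where the unadjusted p was under 0.05, and the Benjamini-Hochberg adjusted p over all genes tested is given with it. These p-values measure only the spread between the samples, which the labels do not tie to separate animals. The paper calls the samples biological duplicates, and states that a week 5 PBOO sample was left out for quality reasons at the library stage. Of the 9 genes tested, 2 rose and 0 fell at week 4, against 5.76% of all 11320 genes tested that rose and 26.2% that fell. Ryr2 was under the level needed for a test. Median-ratio scaling, which moved the week 4 median log2 fold change of all genes from -0.25 to -0.005, gave 5 genes that rose (Cacna1c, Cacna2d1, Atp2a2, Atp2b4 and Stim1) and 0 that fell, against 11.7% and 9% of all genes. None of the 5 then had a limma adjusted p under 0.05, as was so for all genes (0%).

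Cacna2d1 encodes the alpha2delta subunit, which brings calcium channels to the membrane. Its level was 16.7, 28.2 and 20.4 FPKM in the normal samples and 90.2, 89.2 and 117 FPKM in the PBOO samples of week 4. The PBOO samples were all far above the normal ones, with means of 98.8 and 21.8 FPKM, a 4.54-fold ratio. The log2 fold change was 2.20 (SE 0.21, 95% interval 1.70 to 2.69, limma adjusted p = 0.0478). Of the 11320 genes, 59, or 0.521%, had a larger one. With median-ratio scaling it was 2.45, with a limma adjusted p = 0.053.

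Cacna1c encodes the pore of the L-type channel Cav1.2, the main entry route for calcium in bladder muscle. Normal samples had 8.94, 7.93 and 7.81 FPKM and PBOO samples 12.8, 16.4 and 10.6 FPKM, with no overlap. Of all genes, 6.63% had PBOO samples wholly above the normal ones at week 4. The 1.61-fold rise gave a log2 fold change of 0.66 (SE 0.18, limma adjusted p = 0.0823), so it passed the unadjusted threshold and not the adjusted one. It was not called, and turned to -0.25, when the values were taken relative to smooth muscle markers, as described later. That scale uses the mean of 10 markers, whose own week 4 log2 fold changes ran from 0.02 to 2.27 with a median of 0.61. Cacnb2, the cytoplasmic beta subunit that partners the pore, was at 10.6, 9.65 and 9.92 FPKM in normal and 10.2, 9.67 and 8.66 FPKM in PBOO samples. The groups overlapped, and the log2 fold change was -0.08 (SE 0.13, limma adjusted p = 0.658).

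At week 5 all 3 channel subunits fell. Cacna1c was at 5.70, 6.10 and 5.77 FPKM in normal and 0.661 and 1.03 FPKM in PBOO samples, which is 6.94-fold lower in the means. Its log2 fold change was -2.68 (SE 0.23, limma adjusted p = 0.00124). Cacna2d1 had 9.37, 10.7 and 2.996 FPKM in normal and 0.826 and 0.560 FPKM in PBOO samples. The normal samples themselves spread widely here, and the fall was 11.1-fold in the means and -3.12 on the log2 scale (SE 0.58, limma adjusted p = 0.0131). Cacnb2 went from 3.08, 4.39 and 2.74 FPKM to 0.940 and 0.997 FPKM, and its log2 fold change was -1.69 (SE 0.27, limma adjusted p = 0.00835).

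The pumps and their regulator were not called at week 4 and fell at week 5. Atp2a2 was at 131, 149 and 139.8 FPKM in the normal and 155, 206 and 136 FPKM in the PBOO samples of week 4. Its week 4 log2 fold change was 0.22 (SE 0.16, limma adjusted p = 0.351), with overlapping groups. At week 5 normal samples had 149, 155 and 134 FPKM and PBOO samples 76.0 and 71.2 FPKM. Both PBOO samples were below all normal ones, with means 1.99-fold apart and a log2 fold change of -0.99 (SE 0.12, limma adjusted p = 0.00368).

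Pln was at 108, 62.2 and 60.5 FPKM in normal and 64.5, 65.9 and 38.4 FPKM in PBOO samples of week 4. The first normal sample stood above the other two, and the log2 fold change of -0.44 had a 95% interval of -1.13 to 0.25 (limma adjusted p = 0.313). At week 5 Pln had 36.3, 36.3 and 45.4 FPKM in normal and 1.89 and 1.16 FPKM in PBOO samples. This was 25.8-fold lower in the means, and the log2 fold change of -4.63 (SE 0.23, limma adjusted p = 0.000288) was exceeded downwards by 79 of 13685 genes, 0.577%.

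Atp2b4 was the most abundant of the 10 genes in week 4 normal tissue, and at week 5 it fell about as far as Pln. It had 165, 171 and 158 FPKM in normal and 189, 242 and 139 FPKM in PBOO samples of week 4, with overlap and a log2 fold change of 0.17 (SE 0.20, limma adjusted p = 0.549). At week 5 it had 73.5, 108 and 83.1 FPKM in normal and 5.90 and 1.50 FPKM in PBOO samples. The PBOO samples differed several-fold from each other, yet both lay far below the normal ones. The means differed 23.8-fold, and the log2 fold change was -4.81 (SE 0.55, limma adjusted p = 0.00287), with 53 of 13685 genes, 0.387%, changed further downwards. It ranged from -5.77 to -3.86 when each sample was left out in turn.

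Of the release channels, Itpr1 could be tested and Ryr2 could not. Itpr1 had 35.1, 33.6 and 31.8 FPKM in normal and 31.4, 32.8 and 18.7 FPKM in PBOO samples of week 4. The third PBOO sample was low and the others close to normal, with a log2 fold change of -0.32 (SE 0.22, limma adjusted p = 0.321). At week 5 it fell from 14.98, 16.4 and 16.7 FPKM to 9.09 and 3.71 FPKM, a log2 fold change of -1.44 (SE 0.37, limma adjusted p = 0.0341). This value depended on the PBOO samples, and lay between -2.08 and -0.81 when single samples were left out.

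Ryr2 was at 0.358, 0.313 and 0.298 FPKM in normal and 0.638, 0.678 and 0.266 FPKM in PBOO samples of week 4. Thus 2 PBOO samples lay above all normal ones and 1 below them. At week 5 its values were 0.203, 0.137 and 0.101 FPKM in normal and 0.0545 and 0.144 FPKM in PBOO samples, again with overlap. In a fit without the filter on low values the log2 fold changes were 0.49 (SE 0.35, limma adjusted p = 0.376) at week 4 and -0.33 (SE 0.33, limma adjusted p = 0.515) at week 5. The pseudocount of 0.1 shrinks the fold change of a gene at this level.

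The store-operated entry genes had the smallest week 5 falls. Stim1, the calcium sensor in the store membrane, had 17.6, 19.4 and 18.4 FPKM in normal and 21.2, 21.4 and 17.8 FPKM in PBOO samples of week 4 (log2 fold change 0.12, SE 0.12, limma adjusted p = 0.495). At week 5 it fell from 18.4, 21.9 and 18.8 FPKM to 12.8 and 9.12 FPKM, a log2 fold change of -0.86 (SE 0.19, limma adjusted p = 0.0213). Orai1, the pore that STIM proteins open, had 30.9, 26.4 and 23.1 FPKM in normal and 23.6, 21.7 and 25.3 FPKM in PBOO samples of week 4. These groups overlapped, with a log2 fold change of -0.18 (SE 0.14, limma adjusted p = 0.373). At week 5 Orai1 had 12.8, 10.9 and 12.5 FPKM in normal and 7.09 and 9.27 FPKM in PBOO samples. Its log2 fold change of -0.56 (SE 0.17) passed the unadjusted threshold but had a limma adjusted p = 0.0555, and the call was lost without PBOO replicate 1 (-0.37), normal replicate 1 (-0.52) or normal replicate 3 (-0.54). With median-ratio scaling it was -0.67 (limma adjusted p = 0.0344).

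**Figure D2:**
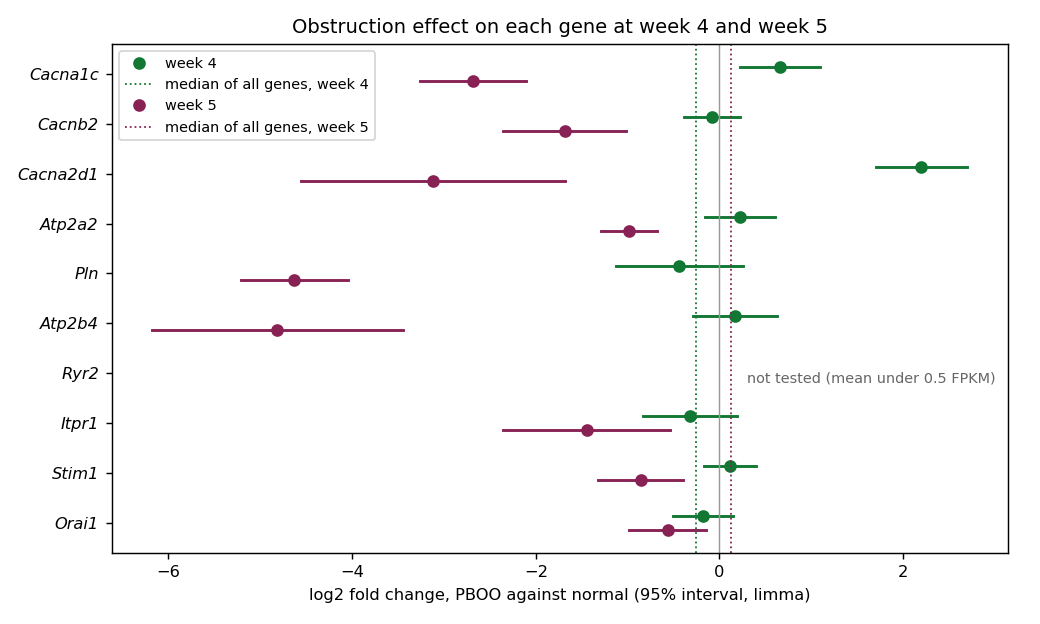
Log2 fold change of PBOO against normal with its 95% interval for each gene at week 4 and week 5. The week 4 intervals lie above 0 for Cacna1c and Cacna2d1 and include 0 for the other 7 genes tested, while at week 5 all 9 lie below 0, although 7 of them were above 0 relative to smooth muscle markers, as were 97% of all genes.

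Across the genes, all 9 tested fell at week 5 in the values as deposited, 8 of them with an adjusted p under 0.05 (Benjamini-Hochberg over limma p-values), whereas 7 were higher relative to smooth muscle markers, a scale on which 97% of all genes were higher. Over all 13685 genes tested, 18.8% fell and 24.6% rose at the unadjusted threshold, and 29.9% had an adjusted p under 0.05. With median-ratio scaling all 9 fell and all 9 passed after adjustment, against 21.6% of all genes that fell, 19.5% that rose and 28% that passed after adjustment. The median log2 fold change was -1.69 over the 9 genes and 0.12 over all genes. Groups did not overlap, with PBOO below, for all 9, against 25% of all genes. At week 4 the medians were 0.12 and -0.25, and 1 of the 9 genes, Cacna2d1, passed after adjustment, against 0.512% of all genes.

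The obstruction effect itself differed between the weeks for most of the genes. In an interaction fit over all 11 samples, the effect at week 5 was lower than at week 4 for 8 of 9 genes, 7 of them after adjustment. Of all 10684 genes tested, 15.6% were lower, 35.5% were higher and 40.9% passed after adjustment in either direction. Cacna2d1 differed most, by -5.32 on the log2 scale (SE 0.62, limma adjusted p = 0.000172). It rose in PBOO tissues at week 4 and fell at week 5. With median-ratio scaling all 9 genes were lower and all 9 passed after adjustment, where 23.4% of all genes were lower, 19.9% higher and 32.8% passed after adjustment. Orai1 differed least, by -0.38 (SE 0.22, limma adjusted p = 0.181), and by -0.74 with median-ratio scaling (limma adjusted p = 0.0412). This ranking holds for the values as deposited. Relative to smooth muscle markers, as described later, Cacna2d1 differed least, by 0.18 (limma adjusted p = 0.776), and Orai1 most, by 5.12. On that scale 98.4% of all genes were higher.

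Smooth muscle markers moved with these results. At week 5 all 10 markers fell, with a median log2 fold change of -4.56, while at week 4 7 of the 10 rose and 0 fell, with a median of 0.61. The 8 fibroblast markers also fell at week 5, with a summed level of 1510 to 1925 FPKM in normal and 121 to 174 FPKM in PBOO samples. Of the 7 immune markers tested, 6 rose, and the summed level of that list was 15.3 to 37.7 FPKM in normal and 162 to 302 FPKM in PBOO samples. Of the urothelial markers, 2 of 10 rose and 5 fell at week 5, with overlapping sums of 6348 to 7762 and 6928 to 7391 FPKM. None of these 4 lists had a gene at 0 in all samples of either week 5 group. At week 4, 7 of the 8 urothelial markers tested fell, with sums of 5309 to 6545 FPKM in normal and 3094 to 3940 FPKM in PBOO samples. Fibroblast sums at week 4 spread from 1070 to 4112 FPKM in normal samples, against 3890 to 4623 FPKM in PBOO samples. Immune sums were 23.7 to 135 FPKM and 87.0 to 127 FPKM. Normal replicate 1 was the low sample, with the fibroblast marker Dcn at 361 FPKM against 1719 and 1540 FPKM. It also had the highest Pln and the lowest Cacna2d1 of its group. The part of these markers in the levels of the calcium genes was not tested. When each sample's log2 values were taken relative to the mean log2 level of the 10 muscle markers, 7 of the 9 genes were higher in PBOO at week 5 and 0 were lower. On that scale 97% of all genes were higher and 0.102% lower, so a higher value is the background. The difference between weeks was likewise higher for 7 genes and lower for 0 on that scale, against 98.4% and 0.0468% of all genes.

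Pln and Atp2b4 stood apart on that scale. Relative to the muscle markers, their week 5 log2 differences were -0.04 for Pln (95% interval -0.79 to 0.71, limma adjusted p = 0.912) and -0.22 for Atp2b4 (95% interval -1.07 to 0.62, limma adjusted p = 0.575). They had fallen by about as much as the markers, within these intervals. The other 7 genes fell less than the markers, from 1.47 for Cacna2d1 to 4.02 for Orai1, with Atp2a2 at 3.60 and Stim1 at 3.73. At week 4, where 85.4% of all genes were lower on that scale and 0.627% higher, 7 of the 9 genes were lower. Cacna2d1 was the 1 that was higher, at 1.29 (limma adjusted p = 0.000981). The markers did not move together at week 4, with log2 fold changes from 0.02 for Smtn to 2.27 for Actg2. Relative to their own mean, 3 of the 10 markers were higher and 3 lower, so the week 4 counts on that scale depend on the markers chosen.

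**Figure D3:**
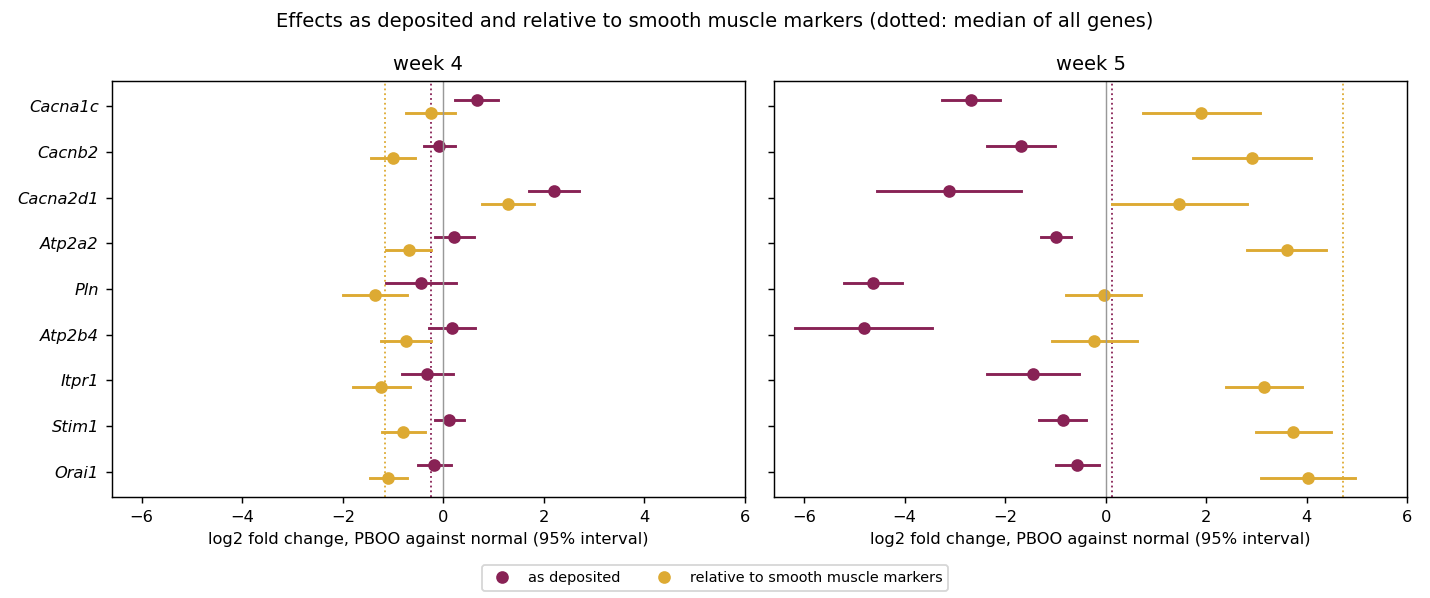
Log2 fold change with 95% interval for the 9 genes tested, from the values as deposited and relative to the mean of 10 smooth muscle markers, with the median of all genes dotted. At week 5 Pln and Atp2b4 lie near 0 relative to the markers and the other 7 genes above 0, and at week 4 Cacna2d1 lies above 0 on both scales.

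The third PBOO sample of week 4 had the lowest value of its group for 8 of the 10 genes. It also had the highest summed level of 10 skeletal muscle markers, 3120 FPKM, against 380 FPKM in the lowest PBOO sample and 199 to 348 FPKM in normal samples. Most of that sum came from 1 gene, Acta1, at 257, 783 and 2741 FPKM in the PBOO samples. The third PBOO sample also had the highest level of the smooth muscle marker Actg2, 29521 FPKM against 15712 and 20976 FPKM. Its 10 highest genes held 20.05% of its FPKM sum. That share was 13.7% and 15.57% in the other PBOO samples and 9.35% to 9.73% in week 4 normal samples. The part of these differences in the results was not tested. The log2 fold change of Cacna2d1 was 2.07 without it, and the log2 fold change of Cacna1c lay between 0.50 and 0.81 when samples were left out in turn, higher in PBOO each time.

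Ratios between partner genes were compared per sample with an exact two-sided permutation test, over 6 pairs in each week, with Benjamini-Hochberg adjustment over the 12 tests. The smallest p that can be reached is 0.1 for 3 against 3 samples and 0.2 for 2 against 3, so no ratio could pass 0.05. The ratio of Pln to Atp2a2, inhibitor to pump, was 0.418 to 0.825 in normal and 0.283 to 0.416 in PBOO samples of week 4 (exact p = 0.1, adjusted 0.3). At week 5 it was 0.234 to 0.338 in normal and 0.0164 to 0.0249 in PBOO samples (exact p = 0.2, adjusted 0.343). The PBOO samples thus lay below all normal ones in both weeks, narrowly at week 4 and by -3.64 on the log2 scale at week 5. The ratio of Atp2b4 to Atp2a2 overlapped at week 4, while at week 5 it was 0.493 to 0.695 in normal and 0.0211 to 0.0776 in PBOO samples (exact p = 0.2).

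Within the L-type channel, the ratio of Cacnb2 to Cacna1c was 1.19 to 1.27 in normal and 0.589 to 0.819 in PBOO samples of week 4 (exact p = 0.1). At week 5 the order was the opposite, with 0.475 to 0.719 in normal and 0.972 to 1.42 in PBOO samples (exact p = 0.2). The ratio of Cacna2d1 to Cacna1c was 1.87 to 3.56 in normal and 5.43 to 11.1 in PBOO samples of week 4 (exact p = 0.1), and the groups overlapped at week 5. Ryr2 to Itpr1 was 0.00930 to 0.0102 in normal and 0.0142 to 0.0207 in PBOO samples of week 4 (exact p = 0.1). Orai1 to Stim1 overlapped in both weeks.

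**Figure D4:**
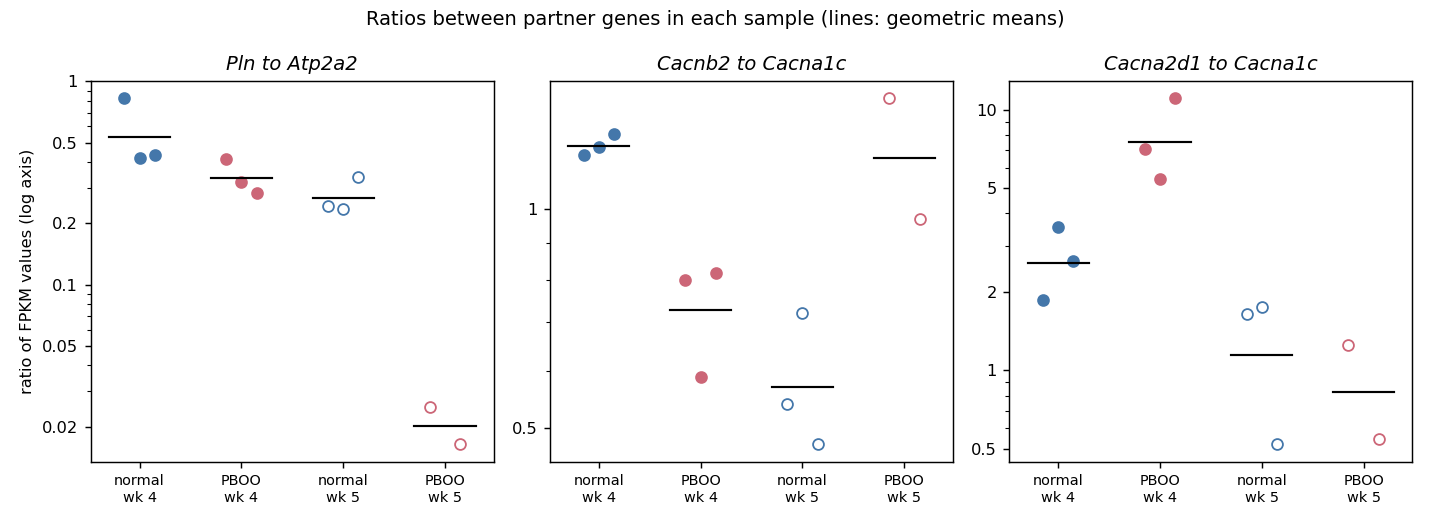
Ratio of FPKM values in each sample on a log axis, by group, with geometric means as lines. The ratio of Pln to Atp2a2 is lowest in the 2 PBOO samples of week 5 (0.0164 to 0.0249), and that of Cacna2d1 to Cacna1c is highest in the 3 PBOO samples of week 4 (5.43 to 11.1).

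The rest of the calcium pathway was followed with a list of 82 other genes. At week 4, 63 could be tested, of which 9 rose and 7 fell, with a median log2 fold change of -0.09, against 5.76% and 26.2% of all genes and a median of -0.25. Median-ratio scaling turned this into 16 that rose and 3 that fell, with a median of 0.15, against 11.7% and 9% of all genes. At week 5, 66 could be tested, of which 3 rose and 34 fell, with a median of -0.69, against 24.6% and 18.8% of all genes and a median of 0.12. Between 3 and 7 rose when single samples were left out, with 7 without PBOO replicate 1. Relative to smooth muscle markers 58 were higher and 0 lower, where 97% of all genes were higher. Against the 18.8% of all genes that fell at week 5, other voltage-gated channel subunits fell in 7 of 10 cases, pumps and exchangers in 5 of 6, release channels and store proteins in 9 of 15 and genes of calmodulin, its kinases and calcineurin in 6 of 14. Genes that link receptors to IP3 and cGMP had 1 that rose and 5 that fell of 9. Other store-operated entry genes had 1 that rose and 1 that fell of 7, and mitochondrial uptake genes 0 and 1 of 5. In these last lists the share that fell was near that of all genes.

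Among the pathway genes named for week 4, Casq2 had the largest rise. Casq2, the calcium-binding calsequestrin of the store, had 18.3, 16.8 and 19.9 FPKM in normal and 40.3, 58.5 and 116 FPKM in PBOO samples. Its log2 fold change was 1.82 (limma adjusted p = 0.0538). Plcb1, a phospholipase that makes IP3, rose by 1.51 and Slc8a2, a sodium-calcium exchanger, by 1.19 on the log2 scale (limma adjusted p = 0.0483 for each). Prkg1, the cGMP-dependent kinase, rose by 0.66 and Fkbp1a, a binding protein of release channels, by 0.44 (limma adjusted p = 0.084 and 0.0733). Trdn, which anchors calsequestrin to release channels, fell by 1.89 and Atp2a3, the SERCA3 pump, by 1.17 (limma adjusted p = 0.0811 and 0.0808). The channel gene Cacna1d fell by 0.95, Micu2 of mitochondrial uptake by 0.38 and Saraf, a brake on store-operated entry, by 0.31 (limma adjusted p = 0.0934, 0.0774 and 0.112).

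At week 5 a few pathway genes rose while most fell. Orai2, a relative of Orai1, had 3.90, 4.92 and 2.99 FPKM in normal and 17.6 and 15.2 FPKM in PBOO samples (log2 fold change 2.06, limma adjusted p = 0.00292). Itpr3, a relative of Itpr1, had 19.6, 21.0 and 19.3 FPKM in normal and 47.6 and 34.6 FPKM in PBOO samples (log2 fold change 1.02, limma adjusted p = 0.00864). In the values as deposited, Orai2 and Itpr3 thus rose while Orai1 and Itpr1 fell. Plcb3, another phospholipase that makes IP3, rose by 0.64 (limma adjusted p = 0.042). Jph2, a junctophilin that holds the store near the plasma membrane, fell furthest among the genes named, from 113, 121 and 118 FPKM to 4.44 and 2.76 FPKM (log2 fold change -5.02, limma adjusted p = 0.000225). Slc8a2 fell by 3.95, Mrvi1 (also named Irag1, which links cGMP to the IP3 receptor) by 3.82, Ryr3 by 3.80 and the T-type channel gene Cacna1h by 3.57 on the log2 scale. Their limma adjusted p-values were 0.000937, 0.000178, 0.000849 and 0.000267. Ryr3 was 1 of 6 genes of the list that were listed at 0 in all week 4 samples.

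**Figure D5:**
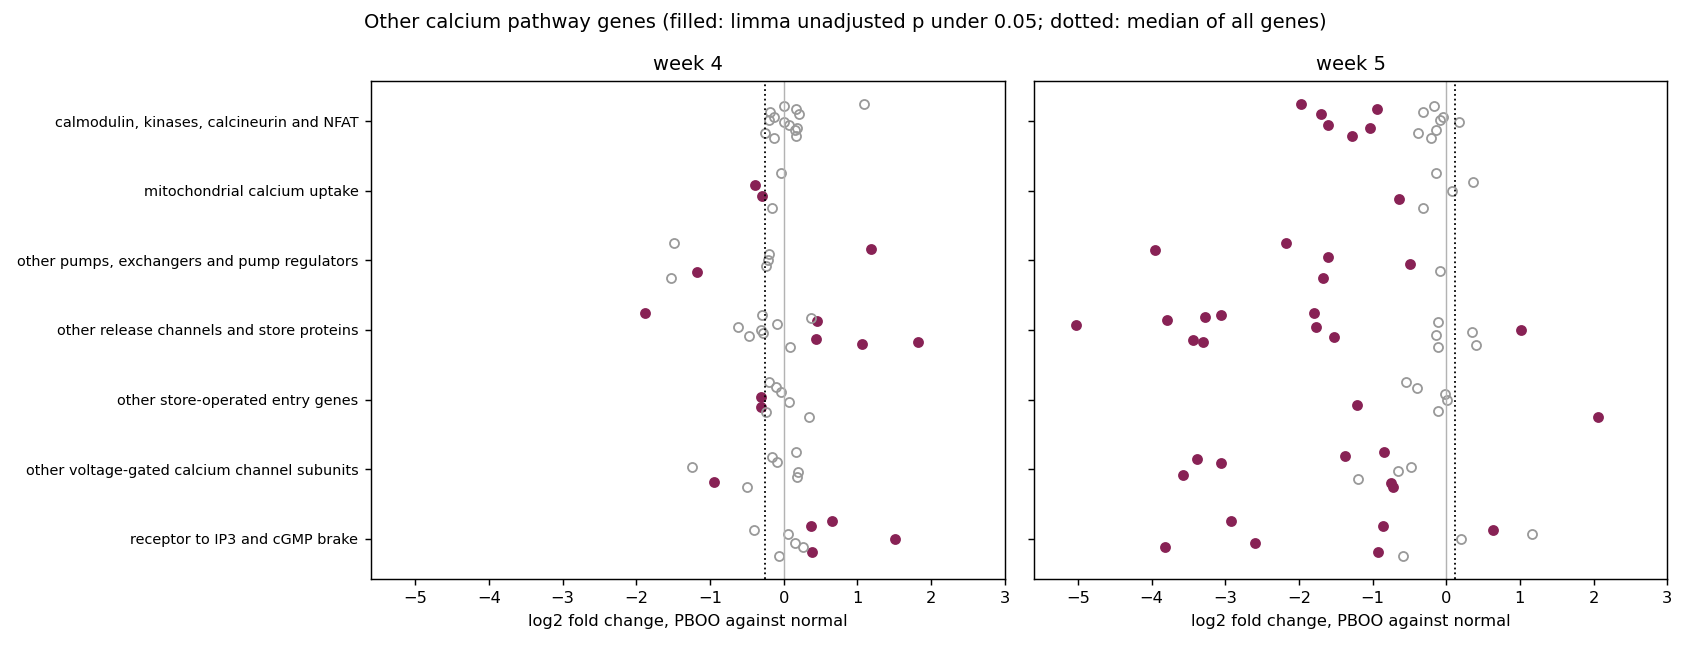
Log2 fold change of PBOO against normal for the other calcium pathway genes by list, with genes past the unadjusted threshold filled and the median of all genes dotted. At week 4 9 genes are filled on the right and 7 on the left, and at week 5 3 and 34, before any scaling to muscle markers.

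The genes most like Cacna1c over the 11 samples, by the root mean square difference of log2 values after centring on each week's normal mean, were Numbl (0.157), Dmd (0.160) and Clmp (0.199), among 9970 genes. Those most like Atp2a2 were Abi2 (0.0998), Ppp3cb (0.106), a calcineurin subunit on the list above, and Tpgs2 (0.123). For Ryr2 the nearest were further away, namely Pcdh7 (0.263), Macf1 (0.264) and Spopl (0.265).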

How the data were processed

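The deposited table gave FPKM values made by the authors for 18507 genes in 11 samples, and all columns were used. By the study's methods, the authors sequenced in pairs, mapped with HISAT2, assembled with StringTie and tested with DESeq2, and the labels name bcl2fastq 2.0. The labels name mm10, a mouse build, for these rat samples, whereas 2331 symbols in the table are of rat (RGD or LOC) style and 0 of mouse (Gm or Rik) style. The annotation is not given in the sources used here. Low values did not fall on whole reads. Between 10.0% and 13.3% of genes under 0.1 FPKM had ratios within 0.5% of whole numbers from 1 to 5, so depth is unknown.

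Each week was fitted with limma 3.58.1 in R 4.3.3 (trend on mean expression) on log2(FPKM + 0.1), for every gene whose mean reached 0.5 FPKM, and an interaction fit used all 11 samples. The p-values were adjusted over all genes tested with the Benjamini-Hochberg method. Exact permutation tests used scipy 1.17.1, with Python 3.11.15, pandas 2.3.3, numpy 2.4.6 and matplotlib 3.10.9. The 10 genes and all lists were chosen with earlier results of these data known. All 10 were named, and of the pathway list up to 5 genes per direction and week with the largest change, p under 0.05, a mean of at least 1 FPKM and no overlap. The 3 most alike genes were named for Cacna1c, Atp2a2 and Ryr2. Only the within-week limma fit was also run on simulated data with known changes. Alternatives were median-ratio scaling, values relative to smooth muscle markers, other pseudocounts and filters, a shared fit, a replicate block and leaving out each sample.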

Additional observations from a re-analysis of the deposited data

Results flagged for a closer look

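The obstruction effect differed between week 4 and week 5, by the interaction test of limma with a Benjamini-Hochberg adjusted p under 0.05, for 7 of the 9 genes tested. Over all 10684 genes in that fit, 40.9% passed after adjustment in either direction, and 15.6% were lower and 35.5% higher at the unadjusted threshold. The difference, week 5 effect minus week 4 effect on the log2 scale, was -3.35 for Cacna1c, -1.60 for Cacnb2, -5.32 for Cacna2d1, -1.21 for Atp2a2, -4.98 for Atp2b4, -4.19 for Pln and -0.98 for Stim1. Relative to smooth muscle markers all 7 differences were positive, at 2.16, 3.90, 0.18, 4.29, 0.52, 1.31 and 4.53 in the same order, where 98.4% of all genes were higher. Every smooth muscle marker also had a lower effect at week 5 than at week 4 (10 of 10), and their part in these differences was not tested. The weeks also appear to differ in how the values were quantified, and only the week 4 columns carry the name Input. With 1 obstruction time per quantification and column type, these cannot be told apart.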

How the results depend on the processing

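The precision is limited by 2 or 3 samples per group, by unknown depth and by a table on which the weeks appear to have been quantified separately. Over all settings, the fold changes of the 9 genes kept direction and call in 360 cases, reversed in 23, lost the call in 12 and gained it in 10. In all 78 cases the ratios between partners kept direction or, where groups overlapped, turned by a move smaller than the larger replicate SD. The size of moves that kept direction was not compared with that spread. The cause of the changes below was not tested, apart from what each setting does by construction.

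With median-ratio scaling at week 4, members higher numbered 5, other pathway genes higher 16 and lower 3, and the sign turned for Cacnb2 (0.17) and Orai1 (0.071). Relative to smooth muscle markers, week 4 had 1 gene higher and 7 lower, and 1 and 51 pathway genes. Week 5 had 7 higher and 0 lower, with 58 and 0 pathway genes, and the difference between weeks 7 and 0, with 55 and 0. That scale shifts nearly every gene, with 85.4% of all genes lower at week 4 and 97% higher at week 5 and 98.4% in the difference. Signs turned on that scale at week 4 for Cacna1c (-0.25), Atp2a2 (-0.69), Atp2b4 (-0.75) and Stim1 (-0.80). At week 5 they turned for Cacna1c (1.90), Cacnb2 (2.90), Cacna2d1 (1.47), Atp2a2 (3.60), Itpr1 (3.15), Stim1 (3.73) and Orai1 (4.02). In the difference between weeks the values were Cacna1c 2.16, Cacnb2 3.90, Cacna2d1 0.18, Atp2a2 4.29, Atp2b4 0.52, Pln 1.31, Itpr1 4.38, Stim1 4.53 and Orai1 5.12.

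A shared fit gave 5 pathway genes higher at week 5. Shares over all genes were not computed for the shared fit or for the fits without single samples. Without single samples, pathway genes higher ranged from 3 to 7 at week 5 and from 4 to 8 in the difference, with the highest counts without PBOO week 5 replicate 1. The week 4 value of Atp2b4 ranged from -0.025 (without PBOO replicate 2) to 0.38 (without PBOO replicate 3, where it was called). The difference between weeks of Itpr1 lost its call in 6 of 11 such fits and was -0.49 without PBOO week 5 replicate 2.

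Whether the replicate numbers pair the samples was not settled, and the main fits did not pair them. The column names number some PBOO samples differently from the replicate labels. Same-numbered samples had correlations of their deviations of 0.154, -0.024 and 0.232 at week 4 and -0.001 and 0.124 at week 5. The second PBOO sample of week 4 correlated best with another number, as did the first PBOO sample of week 5 (0.161). With only 2 PBOO samples at week 5, their deviations mirror each other, so the week 5 values are not separate evidence. With the replicate block, 2 genes were higher at week 4 and 8 lower at week 5, where Orai1 (-0.54) was no longer called, and 8 were lower in the difference. Other pathway genes numbered 10 higher and 10 lower at week 4, and 3 higher and 29 lower at week 5. Shares over all genes were not computed for the replicate block, so these counts have no background beside them.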
